A study of Homo sapiens with 16 samples.

Results

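The clustered protocadherin locus is a stretch of chromosome 5 that holds the alpha, beta and gamma protocadherin gene clusters in a row. Its members here were all regions on chr5 with a start between 140150000 and 140900000 (hg19) in 7 tables of chromatin immunoprecipitation regions. They numbered 407 of 1255311 regions in all. By target they were 115 regions for the insulator protein CTCF, 94 for RAD21 and 73 for SMC1 (subunits of the cohesin ring), 20 for histone H3 acetylated at lysine 27 (H3K27Ac), 33 for RNA polymerase II phosphorylated at serine 5 of its tail (Pol2Ser5), 39 for the serine 2 form (Pol2Ser2) and 33 for total polymerase (TotalRNAPol2). By position 105 regions started in the alpha cluster (140165000 to 140392000), 80 in the beta cluster (140430000 to 140628000) and 151 in the gamma cluster (140710000 to 140893000). A further 10 lay between alpha and beta, 48 between beta and gamma, and 13 outside the clusters.

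The lines compared were HCT116, a human colorectal carcinoma line, and DKO, the HCT116 derivative known for disrupted DNMT1 and DNMT3B genes, which encode DNA methyltransferases and whose loss leaves the genome with little DNA methylation. The labels name the line only as DKO, and they name neither its clone nor any treatment. With 1 library per line and target there were no replicates to give a spread, and no difference was tested. For TotalRNAPol2 the titles name total polymerase while the antibody label names the Pol2Ser5 antibody, and the titles were followed.

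Clustered protocadherins are cell adhesion proteins of the cadherin family, best known for giving each neuron its own surface identity. In the alpha and gamma clusters each variable exon has its own promoter and is spliced to shared constant exons, while the beta genes are single exons. Most of these promoters carry a conserved element with the letters CGCT that CTCF can bind, and CTCF with cohesin brings a promoter into contact with distant enhancers. Methylation of CpG in such sites is known to weaken CTCF binding, and the clusters are known to be methylated over long stretches in several tumour types.

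Promoter sequences are shown to let a reader see the element around which CTCF is known to act in each cluster. They come from RefSeq (GRCh38.p14), whose table held 47 of the 53 clustered genes: 13 of 15 alpha, 14 of 16 beta and 20 of 22 gamma genes. PCDHA3, PCDHA13, PCDHB6, PCDHB11, PCDHGA12 and PCDHGC5 were not among them. No annotation of hg19 was used here, so regions are given by position and were not paired with single genes or with these sequences. Each line is 30 bases on the coding strand, 5′ to 3′, with the CGCT letters in capitals. Printed are the first and last alternate genes held by the table in each cluster and the C-type genes, plus PCDHB1, whose promoter differs from those of the other beta genes.
PCDHA1: ttacattggccacatgatgtCGCTgtacac
PCDHA12: cataatcagtcacatgatgtCGCTctacac
PCDHAC1: ttaagcctagaaggtgtggtCGCTcacgtt
PCDHAC2: gaggctgagcagtccgggttCGCTgtccgc
PCDHB1: gctagactggggagttgagtCGCTcaatgc
PCDHB2: tcggaagagacgcggggtggCGCTgcagcc
PCDHB16: tcagtgagaacgcgtggtggCGCTgcaggt
PCDHGA1: ctggttaggactgtgggcgcCGCTgttcac
PCDHGA11: taagaatgggctctaggcgcCGCTgctcac
PCDHGC3: ttggctgggactctgtgtgcCGCTgtcggc
PCDHGC4: tattggctgagcccgggagcCGCTgtctgc

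Most alternate genes of a cluster shared many of the letters around CGCT. The consensus, taken over alternate genes with 1 CGCT before the start, is printed for the alpha (9 genes), beta (9 genes) and gamma (12 genes) clusters.
Alpha: catttttagccacatgatgtCGCTgtccac
Beta: tcaatgaggacgcatggtggCGCTgcaggc
Gamma: ctagttaggactctgagcgcCGCTgttcac
Of the 26 flanking letters, the best window of an alternate gene matched its own cluster's consensus at 17 to 23 in alpha, 16 to 23 in beta and 5 to 24 in gamma. PCDHA9 and PCDHB8 held no CGCT in the coding-strand stretch searched before the start, so they were not scored. Most alternate genes scored were also used for the consensus, which raises their match. The genes set apart, which were not used for the consensus, matched it as follows: PCDHAC1 at 6, PCDHAC2 at 12, PCDHB1 at 10, PCDHGC4 at 10 and PCDHGC3 at 17. Some alternate gamma genes matched as little, such as PCDHGB7 at 5 and PCDHGB3 at 12. Searched on both strands of the 300-base promoters (250 before the start and 50 after), CGCT stood in 12 of 13 alpha, 14 of 14 beta and 20 of 20 gamma promoters, and in 70.0% of 35116 promoters of all genes, so that the 4 letters alone mark nothing. Longer forms, chosen after the sequences were seen and each containing CGCT, were rarer. ATGTCGCT stood in 9 of 13 alpha promoters and in 0.23% of all promoters. GGTGGCGCT stood in 13 of 14 beta promoters and in 0.50% of all. GNGNCGCTGTT stood in 13 of 20 gamma promoters and in 0.27% of all. The CTCF core letters CCCTC, on either strand, stood in 3 alpha, 0 beta and 9 gamma promoters and in 71.2% of all. The alternate promoters held few CpG, with medians of 7 (alpha), 8 (beta) and 6.5 (gamma) in 300 bases. The C-type promoters held 27 (PCDHAC1), 15 (PCDHAC2), 18 (PCDHGC3) and 23 (PCDHGC4), beside a median of 14 over all promoters. A match in letters is a description of the sequence, not a measured site.

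In what follows, M is log2 of the normalized read density in DKO divided by that in HCT116, so that an M of 1 is a 2-fold higher density in DKO. Reads per region were recovered from the tables, for a window of 1 kb (CTCF, RAD21, SMC1) or 2 kb (the other targets). Libraries differed in depth and the authors' scaling follows the signal level, so M is not the plain ratio of the reads. The interval after the M of a region is an exact (Clopper-Pearson) 95% interval from the reads, and it covers counting error only. The interval after a median M is a 95% order-statistic interval over regions, which share libraries and in part reads, and it describes their spread only. Over whole tables the median region had 24 to 78 reads in DKO and 23 to 94 in HCT116. A region is called at least 2-fold higher where M is 1 or more, or -1 or less. The density set against a table's median is the higher of the 2 lines, so a region can reach it through 1 line alone.

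CTCF was the target with the most regions higher in DKO. At the locus 60 of 115 CTCF regions (52.2%) had a density 2-fold or more above that of HCT116, beside 20.1% of all CTCF regions. Only 3 (2.61%) differed that far the other way, beside 6.33% of all. The locus median M was 1.02 (95% interval of the median 0.74 to 1.28), beside 0.15 on the whole of chromosome 5 and 0.26 over the table. Median reads were 72 in DKO and 30 in HCT116. Cohesin differed in the same direction at fewer regions, most of them called as peaks in 1 line only. Acetylation and serine 5 polymerase had regions past 2-fold toward HCT116 only.

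**Figure D1:**
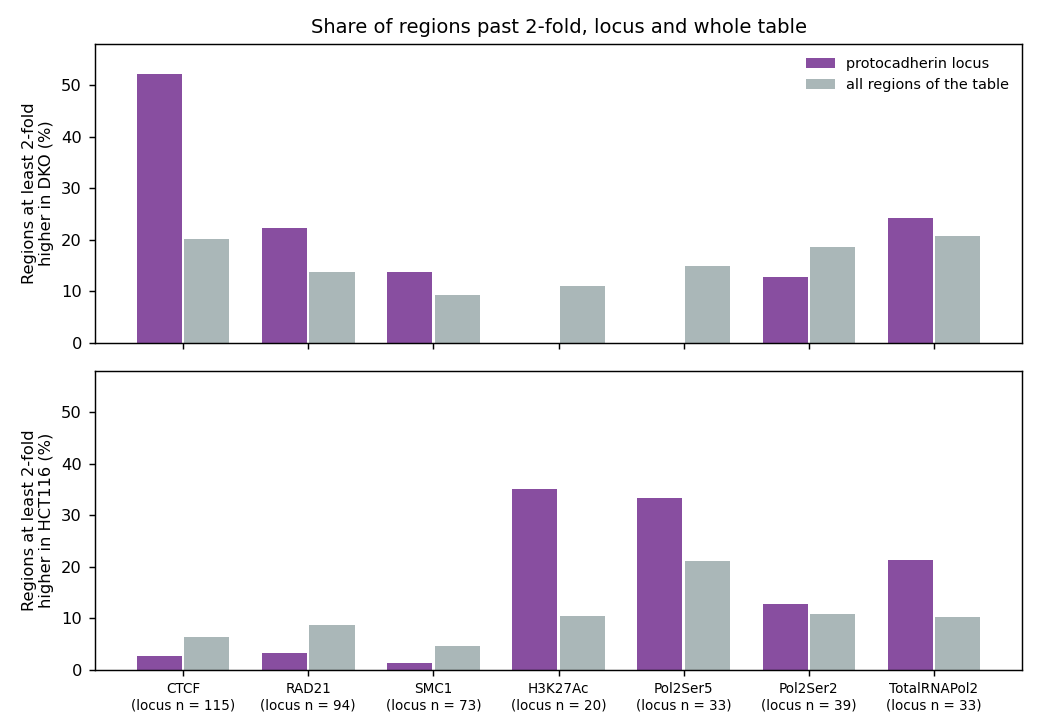
Share of regions at least 2-fold higher in DKO (upper panel) or in HCT116 (lower panel), in percent, for the locus (purple) and for all regions of each table (grey). CTCF stands at 52.2% of locus regions in the upper panel against 20.1%, and H3K27Ac at 35.0% in the lower panel against 10.4%.

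Many of these CTCF regions were called as peaks in 1 line. At the locus 53 regions (46.1%) were called in both lines, 56 (48.7%) in DKO only and 6 (5.22%) in HCT116 only. Over the table these shares were 43.6%, 41.3% and 15.1%. The difference was also seen among regions called in both lines: their median M was 0.47 at the locus and 0.01 over the table. Of these 53 locus regions 17 were past 2-fold toward DKO and 0 toward HCT116, beside 4818 and 3226 of 74774 over the table. Regions past 4-fold numbered 15 higher in DKO and 0 in HCT116, beside 8305 and 1378 of 171693 over the table. CTCF regions were also dense here, with 11.0 per 100 kb in alpha, 17.2 in beta and 25.1 in gamma, beside 4.63 over chromosome 5.

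The alpha cluster had 25 CTCF regions, with 17 (68.0%) at least 2-fold higher in DKO and 0 in HCT116. The median M was 1.13 (0.81 to 1.75), and M was above 0 at 24 of the 25. At chr5:140180410-140183116 there were 236 DKO and 18 HCT116 reads (M 3.54, 2.92 to 4.39). At chr5:140207360-140208569 there were 106 and 9 reads (M 3.23, 2.39 to 4.53). These stood out from the rest of the cluster, whose next region, chr5:140214965-140216297, had 201 and 45 reads (M 2.08, 1.63 to 2.61). The other alpha regions past 2-fold with a density at or above the table's median were chr5:140166907-140167802, chr5:140174270-140176887, chr5:140186314-140189088, chr5:140209296-140209996, chr5:140213375-140214503, chr5:140220411-140221820, chr5:140221959-140223068, chr5:140227817-140228626, chr5:140229124-140230389, chr5:140236672-140237937 and chr5:140248151-140251038, with M from 1.01 to 1.92. All of these lie in the 5′ part of the cluster. The single alpha region below 0, chr5:140235164-140236550, lay among them, with 107 and 148 reads (M -0.48, -0.86 to -0.12).

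Further along the alpha cluster the CTCF regions ranged from level to past 2-fold toward DKO. First came chr5:140254756-140255858 (M 0.46) and chr5:140256032-140257327 (M 0.62). The region chr5:140261334-140264210 had 283 and 297 reads (M 0.02, -0.22 to 0.26). The highest CTCF density of the locus was at chr5:140305427-140307511, with 665 and 565 reads (M 0.42, 0.26 to 0.59), above 99.4% of the table by its density. At chr5:140345857-140346815 there were 106 and 57 reads (M 0.81, 0.34 to 1.31). Beside it, chr5:140347419-140347652 had 54 and 20 reads (M 1.20, 0.48 to 2.06). The strongest CTCF region of the cluster was thus below 2-fold.

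The beta cluster had 34 CTCF regions, with 17 at least 2-fold higher in DKO and 1 in HCT116, with a median M of 0.94 (0.56 to 1.61). The highest M of the locus was at chr5:140529246-140530223, with 136 DKO and 6 HCT116 reads (M 4.09, 3.14 to 5.77). At chr5:140473994-140474611 there were 93 and 11 reads (M 2.78, 1.99 to 3.94). Nearer to gamma, chr5:140561602-140562527 had 151 and 30 reads (M 2.198, 1.66 to 2.85). Other beta regions past 2-fold and at or above the table's median density were chr5:140501195-140501846, chr5:140514634-140515310, chr5:140587599-140588881 and chr5:140613749-140614632, with M from 1.61 to 2.16. The remaining 10 higher in DKO had densities below that median.

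Some beta regions leaned to HCT116, mostly in short runs set between regions that leaned to DKO. The region with the most beta reads in HCT116, chr5:140571240-140572219, had 130 DKO and 205 HCT116 reads (M -0.64, -0.97 to -0.32). At chr5:140593214-140593691 there were 53 and 88 reads (M -0.82, -1.35 to -0.32). The single beta region at least 2-fold higher in HCT116, chr5:140567236-140567592, had 23 and 45 reads (M -1.13, -1.95 to -0.40), and M of its neighbour chr5:140566134-140566998 was -0.49. In all, 6 of 34 beta regions were below 0.

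The gamma cluster had 46 CTCF regions, with 24 (52.2%) at least 2-fold higher in DKO and 1 in HCT116, with a median M of 1.02 (0.52 to 1.31). At chr5:140777214-140777717 there were 103 DKO and 7 HCT116 reads (M 3.49, 2.58 to 5.02). Toward the 3′ end, chr5:140855305-140855743 had 73 and 10 reads (M 2.54, 1.70 to 3.78). The other 11 past 2-fold and at or above the table's median density were chr5:140718171-140719002, chr5:140719137-140719349, chr5:140723176-140723835, chr5:140751431-140752198, chr5:140752702-140756223, chr5:140762135-140762729, chr5:140778924-140779503, chr5:140779583-140779759, chr5:140787366-140787783, chr5:140809990-140810797 and chr5:140857228-140858274, with M from 1.15 to 2.27. The gamma cluster also held 11 regions below 0. Among them chr5:140792203-140793453 had 134 DKO and 257 HCT116 reads (M -0.90, -1.22 to -0.60). Beside it, chr5:140793702-140794062 had 23 and 44 reads (M -1.10, -1.92 to -0.37), the gamma region at least 2-fold higher in HCT116. The strongest gamma region, chr5:140890347-140893653 at the 3′ end, was level, with 426 and 475 reads (M -0.01, -0.20 to 0.18).

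Between the clusters CTCF was level at its strongest regions. Between alpha and beta the only CTCF region, chr5:140419245-140421219, had 269 and 327 reads (M -0.19, -0.43 to 0.05). Between beta and gamma 2 of 8 regions passed 2-fold toward DKO, the neighbours chr5:140705261-140705461 (M 1.99) and chr5:140705657-140706204 (M 1.88), close to the start of gamma. The strongest of the 8, chr5:140699331-140700673, had 315 and 374 reads (M -0.13, -0.36 to 0.09). Just past gamma, chr5:140893767-140894367 had 40 and 77 reads (M -1.05, -1.65 to -0.50).

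**Figure D2:**
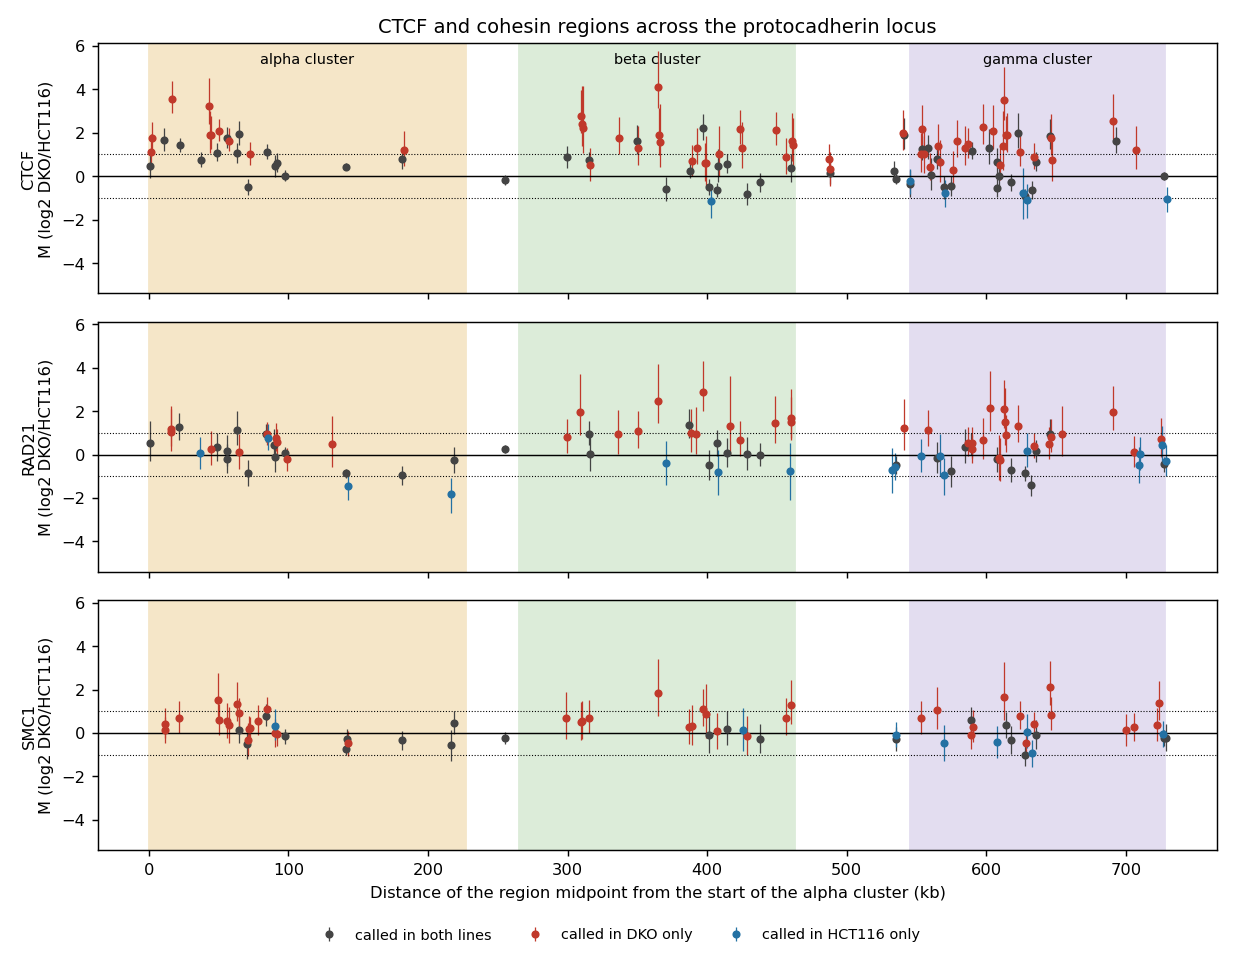
M of each CTCF, RAD21 and SMC1 region against the distance of its midpoint from the start of the alpha cluster in kb; bars are 95% counting intervals, drawn to the edge of the axis where they reach past it, dotted lines mark 2-fold, shading marks the clusters and colours the lines in which a peak was called. CTCF points lie mostly above 0 in all 3 clusters (median M 1.13, 0.94 and 1.02), and RAD21 and SMC1 points lie closer to 0.

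Read by density, the difference between the lines was larger at weaker CTCF regions of the clusters. The same split was not made over the whole table, so this may not be particular to the locus. Of the 52 cluster regions below the clusters' median of the mean log2 density, 37 passed 2-fold toward DKO and 2 toward HCT116, with a median M of 1.31. Of the 53 at or above it, 21 were higher in DKO and 0 in HCT116, with a median M of 0.74. Of the 10 densest, 2 were higher in DKO, with a median M of 0.34. Neighbouring regions are not independent: 51 of the 115 CTCF regions had another within 1 counting window, so part of their reads is shared. The same held for 36 of 94 RAD21, 31 of 73 SMC1 and 9 of 20 H3K27Ac regions. For polymerase it held for 18 of 33 Pol2Ser5, 27 of 39 Pol2Ser2 and 14 of 33 TotalRNAPol2 regions.

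**Figure D3:**
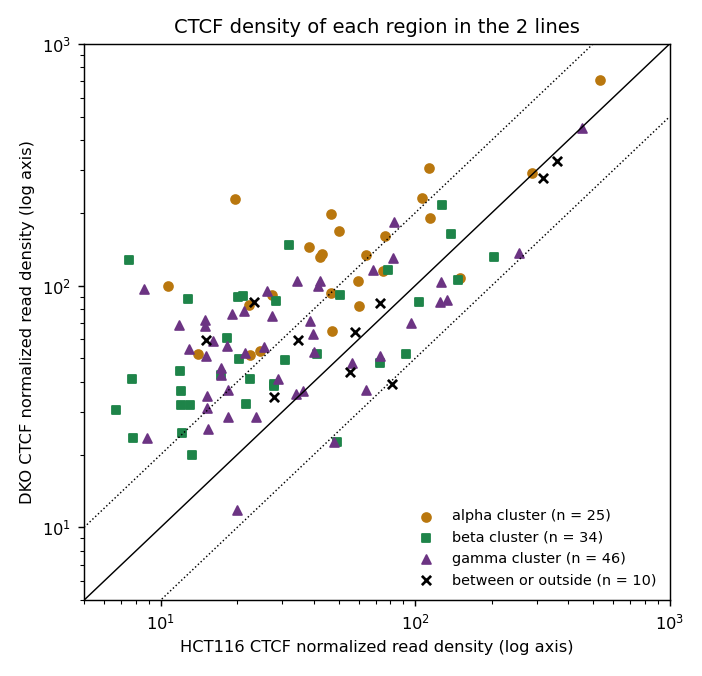
Normalized CTCF read density of each locus region in HCT116 (x, log axis) and DKO (y, log axis), with equality (solid) and 2-fold (dotted) lines. Points above the upper dotted line number 60 and points below the lower one number 3, and the densest regions lie near the solid line.

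Cohesin is the ring complex that CTCF halts on DNA. Of the 94 RAD21 regions 21 (22.3%) were past 2-fold toward DKO, beside 13.7% of all RAD21 regions, and 3 (3.19%) in HCT116, beside 8.70%. The locus median M was 0.37 (0.11 to 0.55), beside 0.14 over the table. Of the 73 SMC1 regions 10 (13.7%) were higher in DKO, beside 9.36% of all, and 1 (1.37%) in HCT116, beside 4.67%. Its median M was 0.26 (0.06 to 0.43), beside 0.16 over the table, and it turned to -0.065 among the 27 regions at or above the table's median density. Among the 35 RAD21 regions called in both lines the median M was 0.02, as over the table. Of these 3 were past 2-fold toward DKO and 1 toward HCT116, beside 3465 and 3989 of 68784 over the table. For the 21 such SMC1 regions the median was -0.23, beside -0.002 over the table. Here 0 were past 2-fold toward DKO and 1 toward HCT116, beside 1224 and 600 of 54418. With M recentred on the median of its whole table the locus held 17 RAD21 regions higher in DKO and 7 in HCT116, and 7 and 2 for SMC1.

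RAD21 differed between the clusters in its counts. In beta 10 of 24 regions were higher in DKO and 0 in HCT116 (median M 0.93, 0.02 to 1.36). In alpha these were 4 and 2 of 27 (median 0.26, -0.20 to 0.75), and in gamma 6 and 1 of 37 (median 0.35, -0.06 to 0.55). The beta regions were weak, with 8 of 24 at or above the table's median density, beside 17 of 27 in alpha and 17 of 37 in gamma. Median HCT116 reads were 17 in beta, 36 in alpha and 26 in gamma. Of the 10 beta regions higher in DKO, 1 was called in both lines. SMC1 showed 3 of 27 in alpha (median 0.21), 3 of 17 in beta (median 0.51) and 4 of 25 in gamma (median 0.26) higher in DKO, and 1 gamma region higher in HCT116. Among the 17 beta SMC1 regions 0 were at or above the table's median density.

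Cohesin varied over the beta regions with the highest CTCF M. At chr5:140561722-140562427 RAD21 had 91 DKO and 8 HCT116 reads (M 2.88, 1.99 to 4.28), and SMC1 at chr5:140561842-140562029 had 46 and 17 (M 1.08, 0.31 to 2.03). At chr5:140529412-140529990 RAD21 had 55 and 6 reads (M 2.45, 1.44 to 4.16), and SMC1 at chr5:140529529-140529807 had 34 and 7 (M 1.84, 0.80 to 3.41). These are the cohesin regions over 2 of the beta CTCF regions described above. RAD21 at chr5:140474019-140474408 had 40 and 6 reads (M 1.97, 0.91 to 3.69), while SMC1 over the same CTCF region had M 0.51. The beta CTCF region chr5:140474936-140475316 (M 2.41) had SMC1 at M 0.54 and no RAD21 region, and chr5:140476254-140476511 (M 2.203) had neither. The densest beta RAD21 region, chr5:140479720-140480327, had 98 and 40 reads (M 0.94, 0.42 to 1.53). The densest beta SMC1 region, chr5:140602765-140603275, was level with 41 and 40 reads (M -0.27, -0.94 to 0.39).

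In gamma, RAD21 at chr5:140777199-140777651 had 60 DKO and 9 HCT116 reads (M 2.10, 1.21 to 3.43). RAD21 at chr5:140767067-140767437 had 44 and 6 (M 2.12, 1.07 to 3.83). SMC1 at chr5:140809980-140810609 had 63 and 11 (M 2.12, 1.28 to 3.29). Some cohesin regions over CTCF regions with M below 0 were lower in DKO as well. RAD21 at chr5:140796965-140797680 had 53 and 115 reads (M -1.39, -1.91 to -0.93). RAD21 at chr5:140792312-140793598 had 114 and 185 (M -0.87, -1.23 to -0.53), and SMC1 at chr5:140792317-140793165 had 59 and 95 (M -1.002, -1.51 to -0.53). The gamma CTCF region with the lowest M, chr5:140793702-140794062, had SMC1 at M 0.06 and no RAD21 region.

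In alpha the highest M was 1.25 for RAD21 and 1.497 for SMC1, below the 3.54 of CTCF. RAD21 at chr5:140186461-140187582 had 99 and 32 reads (M 1.25, 0.69 to 1.90). SMC1 at chr5:140249655-140250282 had 113 and 42 (M 1.08, 0.58 to 1.65). Over the alpha CTCF region with M 3.54, RAD21 at chr5:140180554-140180922 had 47 and 14 reads (M 1.19, 0.37 to 2.23). At the strongest alpha region cohesin and CTCF had opposite signs: RAD21 at chr5:140305441-140307246 had 317 DKO and 584 HCT116 reads (M -0.86, -1.06 to -0.66), and SMC1 at chr5:140305650-140306637 had 206 and 270 (M -0.74, -1.01 to -0.48), while CTCF had M 0.42. RAD21 at chr5:140381223-140381953, with no CTCF region over it, had 19 and 50 reads (M -1.81, -2.70 to -1.07).

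Of the 115 CTCF regions 67 (58.3%) overlapped a RAD21 region by at least 1 bp, 51 (44.3%) an SMC1 region and 41 (35.7%) both, beside 60.04%, 49.0% and 44.7% of all CTCF regions. The 41 were 14 where 50% of the CTCF region had to be covered. At the 60 CTCF regions at least 2-fold higher in DKO, 31 had a RAD21 region, with 15 past 2-fold toward DKO and 29 with M above 0 (median 0.96). SMC1 lay at 21 of the 60, with 6 at least 2-fold higher, 21 above 0 and a median M of 0.67. All 3 proteins passed 2-fold at 4 CTCF regions. Neither subunit was called at 23 of the 60, close to the share over the whole table, 13139 of 34479. Both subunits were called at 15 of the 60, beside 13246 of 34479. The separate RAD21 and SMC1 counts at the 60 regions, and the count of all 3 proteins past 2-fold, were not computed for the whole table. At the 24 CTCF regions with M within 0.5 of 0, the median M was -0.45 for RAD21 (17 regions) and -0.23 for SMC1 (12 regions).

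**Figure D4:**
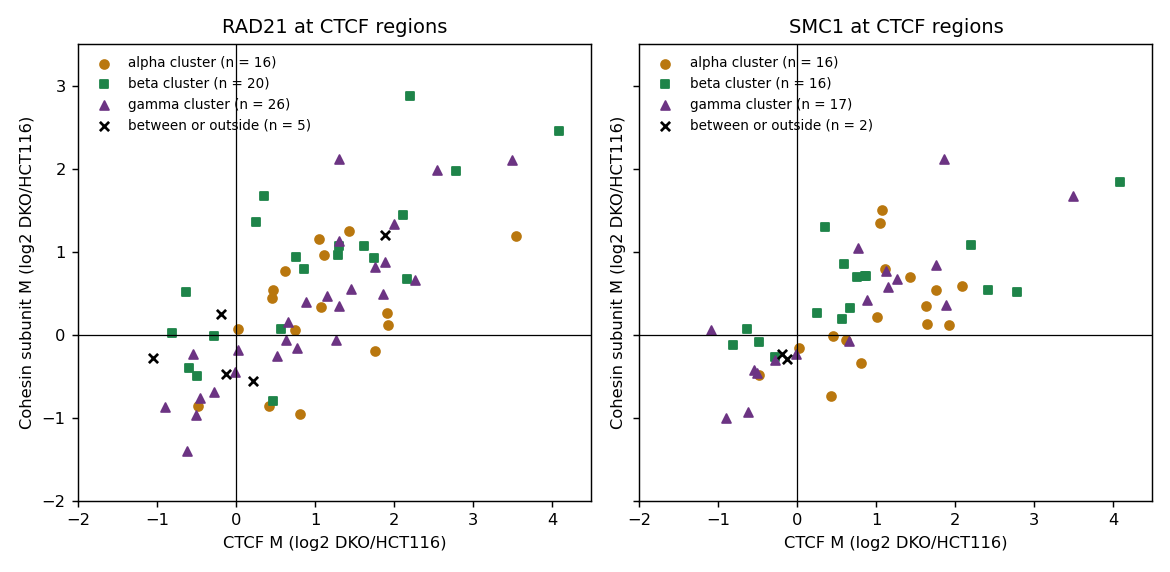
M of RAD21 (left) or SMC1 (right) against M of the CTCF region it overlaps, 1 point per CTCF region, by cluster. The 67 points with RAD21 have a Spearman's rho of 0.72 and the 51 with SMC1 of 0.71, with the loosest spread in alpha for RAD21 (0.40).

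As a description across sites, Spearman's rho between CTCF M and RAD21 M was 0.72 (67 sites), with 0.40 in alpha (16), 0.70 in beta (20) and 0.91 in gamma (26). For SMC1 it was 0.71 (51 sites), with 0.61, 0.70 and 0.81 in the 3 clusters (16, 16 and 17). The sites share their libraries and, where neighbours are close, their reads.

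H3K27Ac, a mark of active promoters and enhancers, was sparse and never at least 2-fold higher in DKO at the locus. Of 20 regions 7 (35.0%) were at least 2-fold higher in HCT116, beside 10.4% of all H3K27Ac regions, and 0 in DKO, beside 11.0%. The median M was -0.54 (-1.26 to -0.12), beside -0.05 over the table. The beta cluster held 0 H3K27Ac regions, alpha 6 and gamma 8. Of the 115 CTCF regions 7 (6.09%) overlapped an H3K27Ac region, beside 39.2% of all CTCF regions, and of the 60 CTCF regions higher in DKO 7 overlapped any acetylation or polymerase region, beside 19246 of 34479 in the whole table.

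The acetylation that was lower in DKO lay toward the 3′ end of alpha, between alpha and beta, within gamma and past gamma. At chr5:140380731-140385005, the densest H3K27Ac region of alpha, there were 98 DKO and 375 HCT116 reads (M -1.76, -2.10 to -1.44). At chr5:140357894-140358110 there were 9 and 59 (M -2.24, -3.56 to -1.34). Both regions lie in the 3′ stretch of alpha, past its strongest CTCF region. Between alpha and beta, chr5:140419682-140419888 had 34 and 127 reads (M -1.61, -2.23 to -1.09), and chr5:140419980-140420876 had 30 and 126 (M -1.77, -2.43 to -1.22). These neighbours lie within 1 counting window of each other and inside the CTCF region that was level between the lines.

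In gamma, chr5:140792502-140793650 had 38 and 111 reads (M -1.26, -1.86 to -0.74), over the CTCF region that leaned to HCT116. The other gamma regions ran from M -0.63 to 0.07. Past gamma, chr5:140899209-140903075 had 132 and 372 reads (M -1.33, -1.64 to -1.05). Nearer to gamma, chr5:140893848-140894510 had 43 and 106 (M -1.02, -1.59 to -0.52), and between these chr5:140896190-140896782 had an M of -0.65. Other acetylated regions differed less. At the strongest alpha CTCF region, H3K27Ac at chr5:140306275-140307159 had 160 and 182 reads (M -0.01, -0.32 to 0.31). Between beta and gamma, chr5:140699398-140701226 had 471 and 472 (M 0.09, -0.10 to 0.28). RefSeq places SLC25A2 and TAF7 between the beta and gamma genes. Leaning to HCT116 below 2-fold, chr5:140345572-140347231 in alpha had 190 and 335 reads (M -0.67, -0.94 to -0.41).

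**Figure D5:**
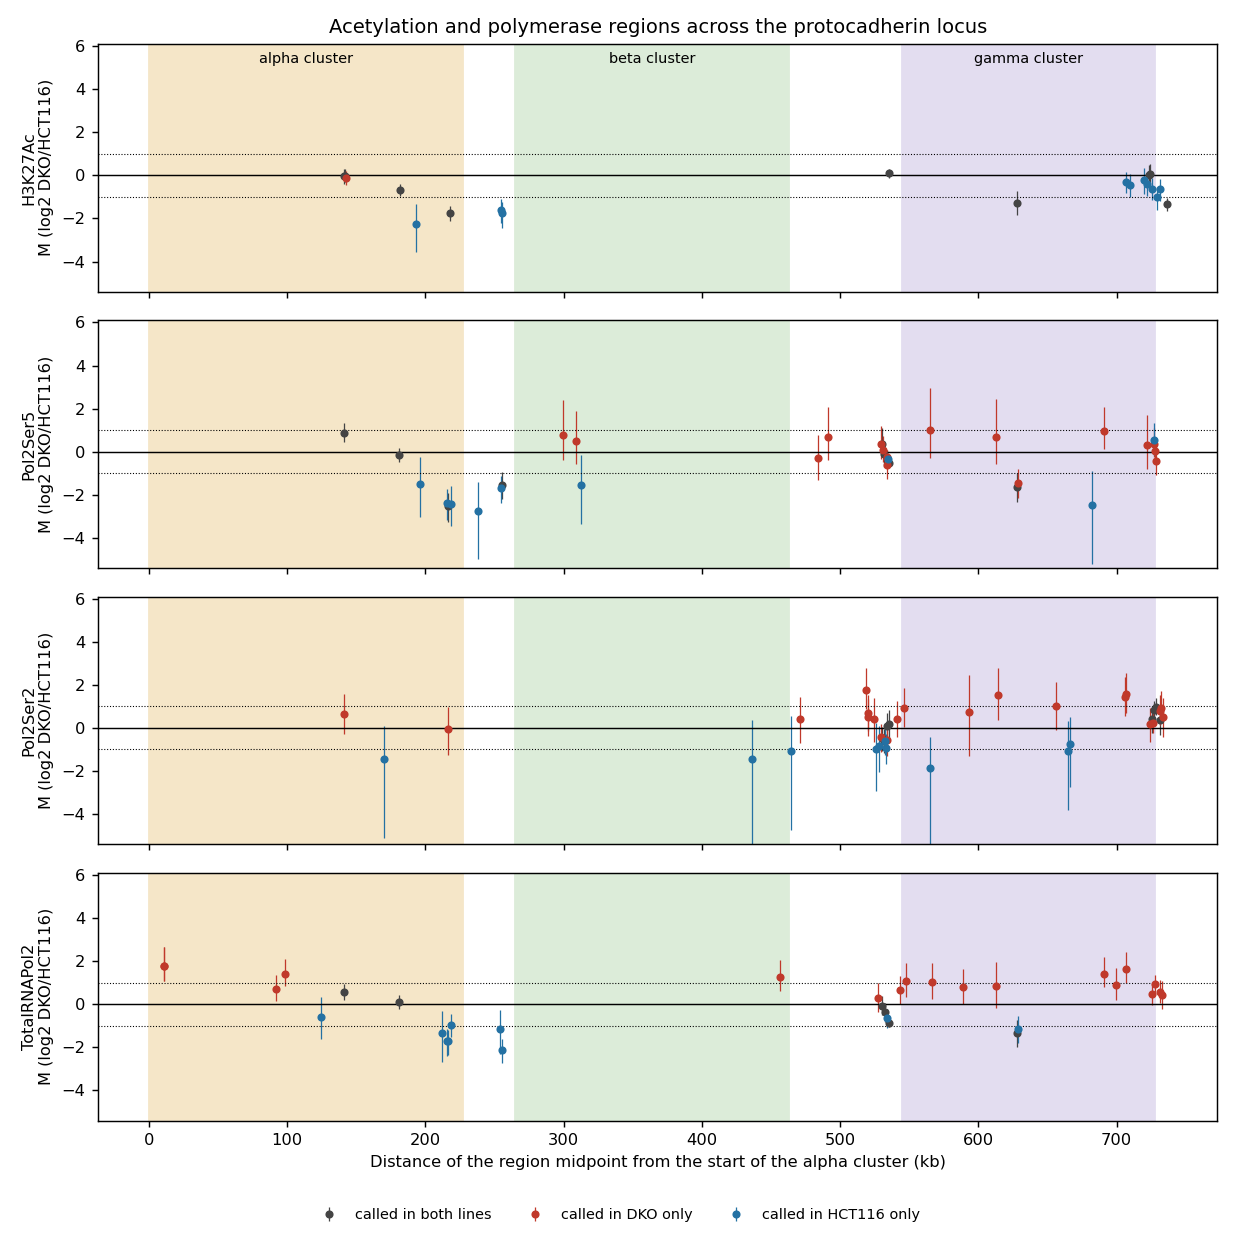
M of each H3K27Ac, Pol2Ser5, Pol2Ser2 and TotalRNAPol2 region against the distance of its midpoint from the start of the alpha cluster in kb; bars, dotted lines, colours and shading mean the same as in the plot of CTCF and cohesin. The points near 218 and 255 kb lie below the lower dotted line for H3K27Ac and Pol2Ser5, and the beta cluster holds 0 H3K27Ac, 3 Pol2Ser5, 1 Pol2Ser2 and 1 TotalRNAPol2 regions.

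Serine 5 phosphorylation marks polymerase near promoters. Of 33 Pol2Ser5 regions 11 (33.3%) were at least 2-fold higher in HCT116, beside 21.0% of all and 28.1% on chromosome 5. In DKO 0 were, beside 14.9% of all and 14.1% on chromosome 5. The locus median M was -0.26 (-1.45 to 0.36), beside -0.17 on chromosome 5 and -0.004 over the table, and 14 of the 33 were above 0. By cluster the median was -1.95 in alpha (6 regions), 0.51 in beta (3) and 0.34 in gamma (10). These 11 lay in alpha (4 of 6 regions), between alpha and beta (3 of 3), in beta (1 of 3) and in gamma (3 of 10), and 0 of 10 lay between beta and gamma. With the chromosome 5 median taken off, a shift of 0.17, 3 regions (9.09%) were higher in DKO and 11 (33.3%) in HCT116. The table's shares were then 19.0% and 18.1%. At chr5:140380963-140381956 there were 25 DKO and 88 HCT116 reads (M -2.53, -3.27 to -1.91). Beside it, chr5:140380644-140380851 had 23 and 74 (M -2.39, -3.17 to -1.74) and chr5:140383594-140384245 had 14 and 48 (M -2.43, -3.47 to -1.61). All 3 lie at the acetylated region at the 3′ end of alpha that was lower in DKO. The first 2 lie within 1 counting window of each other.

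Between alpha and beta, Pol2Ser5 at chr5:140419498-140419846 had 34 and 67 reads (M -1.71, -2.37 to -1.11), and at chr5:140402903-140403092 it had 4 and 20 (M -2.74, -5.001 to -1.42). In gamma, chr5:140792543-140793297 had 31 and 58 (M -1.63, -2.33 to -0.99). The strongest alpha CTCF region differed in direction: Pol2Ser5 at chr5:140305462-140306606 had 183 DKO and 57 HCT116 reads (M 0.88, 0.46 to 1.35). The densest Pol2Ser5 region of alpha, chr5:140345641-140347016, had 197 and 126 reads (M -0.17, -0.50 to 0.17). The densest of the locus, chr5:140699698-140701245 between beta and gamma, had 534 and 422 (M -0.53, -0.71 to -0.34). Pol2Ser5 in beta was at the edge of what these libraries resolve, with 6 to 22 reads in DKO and 7 to 12 in HCT116.

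Total polymerase was mixed at the locus. Of 33 TotalRNAPol2 regions 8 (24.2%) passed 2-fold toward DKO, near the 20.7% of all, and 7 (21.2%) in HCT116, beside 10.2%. In alpha 3 of 11 were higher in each line, and they lay apart. Those higher in DKO lay further 5′: chr5:140263137-140263946 had 87 DKO and 29 HCT116 reads (M 1.43, 0.84 to 2.12), and the neighbours chr5:140175673-140175984 and chr5:140176093-140176297 each had 67 and 19 (M 1.79, 1.09 to 2.66). Those higher in HCT116 lay 3′, such as chr5:140381425-140381831 with 35 and 102 (M -1.72, -2.35 to -1.18) and chr5:140380758-140381233 with 28 and 87 (M -1.72, -2.42 to -1.13). The same 3′ stretch was lower in DKO for H3K27Ac and Pol2Ser5. The 2 neighbours higher in DKO lie within 1 counting window and have the same reads, so they are close to 1 measurement. Those named as higher in HCT116 also lie within 1 counting window of each other.

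Between alpha and beta TotalRNAPol2 at chr5:140419998-140420874 had 35 and 131 reads (M -2.14, -2.75 to -1.62). In beta the only region, chr5:140621141-140621578, had 59 and 24 (M 1.26, 0.59 to 2.05). In gamma 4 of 11 were higher in DKO and 2 in HCT116. The densest gamma region, chr5:140891369-140893955 at the 3′ end, had 209 and 75 reads (M 0.93, 0.55 to 1.34). At chr5:140855400-140855799, over a gamma CTCF region higher in DKO, there were 71 and 25 (M 1.42, 0.78 to 2.18). At chr5:140871596-140871845 there were 72 and 22 (M 1.64, 0.98 to 2.45), and at chr5:140792561-140793342 there were 32 and 75 (M -1.32, -1.99 to -0.73). The scaling matters for this target: with 1 constant per library in place of the authors' line, which moved the median of all TotalRNAPol2 regions by -0.29, 3 locus regions were higher in DKO and 9 in HCT116. These are 9.09% and 27.3% of the locus regions, beside 12.1% and 19.0% of the table under the same scaling.

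Serine 2 phosphorylation marks elongating polymerase. Of 39 Pol2Ser2 regions 5 (12.8%) passed 2-fold toward DKO, beside 18.6% of all, and 5 (12.8%) in HCT116, near the 10.9% of all. The regions were few in alpha (3) and beta (1), and 17 lay between beta and gamma and 14 in gamma. In gamma 4 were higher in DKO and 2 in HCT116. The densest, chr5:140892713-140894103 at the 3′ end, had 162 DKO and 82 HCT116 reads (M 0.98, 0.60 to 1.39), and the neighbour chr5:140891378-140892564 had 147 and 83 (M 0.84, 0.45 to 1.26). At chr5:140871629-140871798 there were 30 and 17 (M 1.55, 0.68 to 2.54). The densest region between beta and gamma, chr5:140696352-140697452, leaned to HCT116 with 43 and 82 reads (M -0.60, -1.18 to -0.06). The single beta region, chr5:140601378-140601547, had 1 DKO and 14 HCT116 reads, and its interval spans 0 (M -1.44, -7.74 to 0.38). With 1 constant per library, which moved all Pol2Ser2 regions by a median of -0.24, 5 were higher in DKO and 9 in HCT116. These are 12.8% and 23.1% of the locus regions, beside 11.85% and 18.3% of the table under the same scaling.

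Set side by side, 4 places of the locus showed different combinations (a choice made with the values in view). At the strongest alpha CTCF region CTCF (M 0.42), Pol2Ser5 (M 0.88) and TotalRNAPol2 at chr5:140305688-140306689 (206 and 93 reads, M 0.56) were above 0, H3K27Ac was level and both cohesin subunits were below 0. Between alpha and beta CTCF (M -0.19), RAD21 at chr5:140419222-140421724 (426 and 358 reads, M 0.25, which is -0.038 with 1 constant per library) and SMC1 at chr5:140419125-140421164 (229 and 210 reads, M -0.23) were within 0.5 of level, while H3K27Ac, Pol2Ser5 and TotalRNAPol2 were all at least 2-fold higher in HCT116. In gamma over chr5:140792203-140793453 CTCF, RAD21, SMC1, H3K27Ac, Pol2Ser5 and TotalRNAPol2 were all below 0. At the 3′ end of gamma CTCF was level (M -0.01), RAD21 (M -0.45), SMC1 (M -0.24) and H3K27Ac (M -0.63) were below 0 at their densest regions over it, Pol2Ser5 ran from M -0.42 to 0.54, TotalRNAPol2 had M 0.93, and Pol2Ser2 ran from M 0.24 at chr5:140891045-140891275 to 0.98.

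The count of CTCF regions higher in DKO stayed above the table's share under each scaling tried. With M recentred on all regions 47 of 115 (40.9%) were at least 2-fold higher in DKO, beside 13.9% of the table. With the chromosome 5 median taken off there were 51, beside 16.3% of the table, and with 1 constant per library 61, beside 24.3%.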

How the data were processed

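Chromatin immunoprecipitation libraries of 7 targets from HCT116 and DKO cells were compared, 1 library per line and target; the 2 input libraries were not used. Reads were aligned with BWA to hg19 and peaks called with MACS2, per the submitters' processing notes; their versions are not stated there. The notes name no MACS2 for TotalRNAPol2. Each deposited table gives a normalized read density (a signal) per line, a log2 ratio M, a mean log2 density A and a p-value per region, per the file headers. The deposited log2 ratio equals that of the densities.

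Reads were recovered as whole numbers: a line in A added to M gives log2 of the ratio of reads (each plus 1), and 100% of values were whole within 0.05. The step was checked on simulated data. Where in a region the counting window is centred was not given. Depth is known only per region. M was computed from the densities, a region was counted past 2-fold at an M of 1 or more in size, and exact 95% Clopper-Pearson intervals were taken from the reads of both libraries. Overlap needs 1 bp. Python 3.11.15, numpy 2.4.6, pandas 2.3.3 and scipy 1.17.1 were used.

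Alternatives were 3 other scalings, a floor at the table's median density, a filter on the p-value of the authors' deposited table (under 1e-05), 1 region per counting window, membership by midpoint and a 50% overlap. Regions named are those with the highest and lowest M and the highest density per cluster and target, among regions at or above the table's median density where any is, and the CTCF regions past 2-fold above it; others were named after their values were seen. The members, lists and rules were chosen with earlier results of these data known. Promoters were matched by symbol in RefSeq (GRCh38.p14). The genes disrupted in DKO were not looked up by position, since no hg19 annotation was used here. All 34 regions that 6 tables hold at chr20:31368726-31392574, an interval chosen with its values in view, had 0 DKO reads, with up to 431 HCT116 reads.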

Additional observations from a re-analysis of the deposited data

How the results depend on the processing

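With 1 library per line and target, nothing here carries a replicate check, and weak regions are limited by counting. No paired analysis was possible because each line has 1 library per target and no result comes from a test. Counts below are regions of the locus at least 2-fold higher in DKO or in HCT116. Of 100 recomputed counts 67 stayed within 1.5 times the reported one. Kept at or above the median density, CTCF had 36 in DKO and 1 in HCT116 of 71 regions kept. This floor takes the higher density of the 2 lines, so it is not independent of the difference between them. For DKO, RAD21 had 9 of 45 and SMC1 2 of 27. For HCT116, H3K27Ac had 4 of 9 and Pol2Ser5 7 of 20. Pol2Ser2 had 3 in DKO and 0 in HCT116 of 18, and TotalRNAPol2 1 and 4 of 14. The median SMC1 M turned to -0.065. Kept at p under 1e-05 in the authors' deposited table, CTCF had 41 in DKO and 0 in HCT116 of 46 regions kept. That p-value is of the same comparison as M. The filter thus keeps regions that differ between the lines by its making, and high shares past 2-fold follow from it. For DKO, RAD21 then had 7 of 14 and SMC1 2 of 4. For HCT116, H3K27Ac had 4 of 4 and Pol2Ser5 4 of 5. No Pol2Ser2 region was kept, and TotalRNAPol2 had 0 in DKO and 3 in HCT116 of 4. With 1 constant per library, CTCF had 0 and Pol2Ser2 9 in HCT116, TotalRNAPol2 3 in DKO, and RAD21 at chr5:140419222-140421724 turned to -0.038. The whole-table shares for these 3 counts were 4.80%, 18.3% and 12.1% under that scaling. Recentred on all regions (CTCF shifted by -0.26, RAD21 by -0.14, SMC1 by -0.16, Pol2Ser2 by -0.17 and TotalRNAPol2 by -0.27), CTCF had 7, RAD21 7, SMC1 2 and Pol2Ser2 8 in HCT116, and TotalRNAPol2 5 in DKO. In the same order the whole-table shares were 10.6%, 11.7%, 6.87%, 14.15% and 13.7%. With the chromosome 5 median taken off, RAD21 had 8 and SMC1 2 in HCT116 and Pol2Ser5 3 in DKO. In the same order the whole-table shares were 12.6%, 6.02% and 19.0%. With 1 region per window, Pol2Ser2 had 3 of 24 in DKO and TotalRNAPol2 4 of 26 in HCT116. Asking that 50% of the CTCF region be covered left 14 CTCF regions with both cohesin subunits in place of 41. Of regions past 2-fold, the share higher in DKO was 87.5% for RAD21 and 66.7% with the chromosome 5 median taken off, 90.9% and 77.8% for SMC1, and 53.3% and 25.0% with 1 constant per library for TotalRNAPol2. Over whole tables these shares were 61.1% and 43.7% for RAD21, 66.7% and 54.4% for SMC1, and 67.0% and 38.9% for TotalRNAPol2. Fewer regions or another scale line make up these alternatives; the cause of single shifts was not tested.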
